A study of Mus musculus with 18 samples.

Results

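Messages for 10 CC chemokines, CCL2, CCL3, CCL4, CCL5, CCL6, CCL7, CCL9, CCL17, CCL20 and CCL22, were followed across 18 mouse thyroid RNA-seq libraries. They were taken by symbol from a table of 23626 named genes, and all 10 were present in it. Symbols are given in capitals, as in that table. The libraries were made from YFP-sorted thyroid cells that the labels call thyrocytes, from untreated mice at 20 weeks. There were 4 tumours with BrafV600E alone (Braf tumours), 7 with BrafV600E and Tert-123C>T (Tert-123 tumours) and 4 with BrafV600E and K5-Tert (K5-Tert tumours). The Braf mutation was absent from 3 pooled libraries, 1 each of K5-Tert alone, of Tert-123C>T alone and of wild-type mice. Every library without the mutation was a pool and every library with it a tumour. Differences with the mutation therefore cannot be told apart from those of pooling or of tumour against other thyroid. BrafV600E is an activating mutation of a kinase of the MAPK pathway that is frequent in papillary thyroid cancer. Tert-123C>T is a base change in the promoter of Tert, the telomerase reverse transcriptase gene, and K5-Tert names a Tert transgene, K5 being the usual abbreviation of the keratin 5 promoter. The labels do not say what drives BrafV600E or YFP, how many mice made a pool, or whether the tumours of a group came from separate mice. The p-values below therefore measure the spread between libraries, which may in part be technical.

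CC chemokines are small secreted proteins, named for a pair of adjacent cysteines, that attract leukocytes along a concentration gradient by binding G protein-coupled receptors of the CCR family. CCL2 and CCL7 draw monocytes through CCR2, and CCL3, CCL4 and CCL5 draw monocytes and T cells. CCL6 and CCL9 are rodent chemokines made mainly by myeloid cells and bind CCR1. CCL17 and CCL22 are made mainly by dendritic cells and macrophages and attract T cells through CCR4, while CCL20 is made by epithelial and other cells and binds CCR6. Many of these genes are induced by NF-kB in inflamed tissue.

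Values in the deposited table were taken to be TPM (a level scaled by transcript length and to a fixed total per library), so levels can be compared between genes. Read totals were not used here, and depth is unknown. Differences were tested with limma on log2(TPM + 1), over all genes that reached 10 TPM in at least 4 libraries. CCL3, CCL4, CCL7, CCL20 and CCL22 did not, and their values come from a fit of all genes that reached 1 TPM in at least 4. A difference passed, or was called, when its p adjusted over all genes in the fit was under 0.05. One noncoding RNA, Rpph1, took 43.7% to 68.8% of the TPM of a library, and 10958 to 15045 genes reached 1 TPM. Tert itself stood at 11.2 to 73.9 TPM in the K5-Tert tumours and 125 TPM in the K5-Tert pool, against 2.65 to 6.23 TPM in the other 11 tumours. The median gene was 0.47 lower on the log2 scale in K5-Tert tumours than in either other tumour group. Xist, expressed from the inactive X chromosome, was at 10 TPM or more in all 4 Braf tumours, in 4 of the 7 with Tert-123C>T, but in 1 of the 4 K5-Tert tumours. Differences that go with Xist can therefore be only partly told apart from those of K5-Tert against Braf tumours. Sample names of K5-Tert tumours carry later numbers than those of any other tumour; the labels do not say if they were handled as a separate batch, and such a batch cannot be told apart from K5-Tert. The labelled cell type was checked against markers. The summed level of 13 thyrocyte markers was 395 to 1291 TPM in the tumours and 26476 to 32621 TPM in the pools, mostly thyroglobulin (TG). The summed level of 14 macrophage markers was 243 to 5292 TPM in the tumours and 66.1 to 331 TPM in the pools. Summed fibroblast markers were at 89.9 to 2418 TPM in the tumours and neutrophil markers at 4.62 to 79.9 TPM, and no B cell, mast cell or T and NK cell marker reached 10 TPM in a tumour. Summed endothelial markers were at 12.4 to 110 TPM in the tumours and 87.8 to 849 TPM in the pools. The tumour libraries therefore held messages of macrophages, fibroblasts and endothelial cells beside those of thyrocytes. In bulk libraries, fewer cells of a type and less RNA per cell cannot be told apart.

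CCL6 and CCL17 were the leading CC chemokine messages of the tumours. Together they made up 71.6% to 94.7% of the summed TPM of the 10 genes in a tumour, with a median of 86.3% over the 15 tumours. CCL6 alone took 19.7% to 76.0% and CCL17 14.3% to 63.3%. The summed level was 200 to 385 TPM in Braf tumours, 63.7 to 1821 TPM in Tert-123 tumours and 255 to 2171 TPM in K5-Tert tumours. Braf tumours lay close together, whereas the other groups spanned wide ranges that overlapped them. The pools were made up differently. Their summed levels were 11.9 TPM (wild type), 19.6 TPM (K5-Tert) and 205 TPM (Tert-123C>T), and CCL5, CCL3 and CCL4 led in the Tert-123C>T pool.

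**Figure D1:**
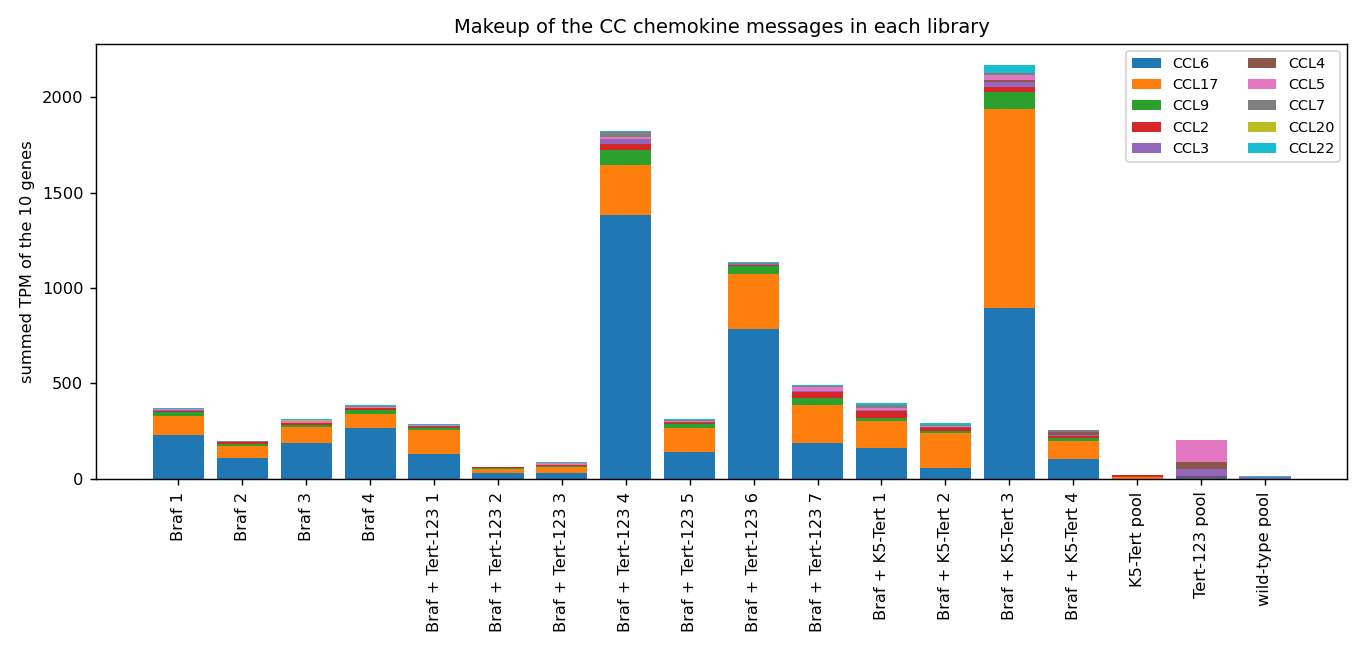
Stacked bars give the TPM of the 10 CC chemokines in each of the 18 libraries (vertical axis, summed TPM; horizontal axis, library by genotype and replicate). CCL6 and CCL17 fill most of each tumour bar, and Tert-123 tumour 4 (1821 TPM) and K5-Tert tumour 3 (2171 TPM) stand highest.

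**Figure D2:**
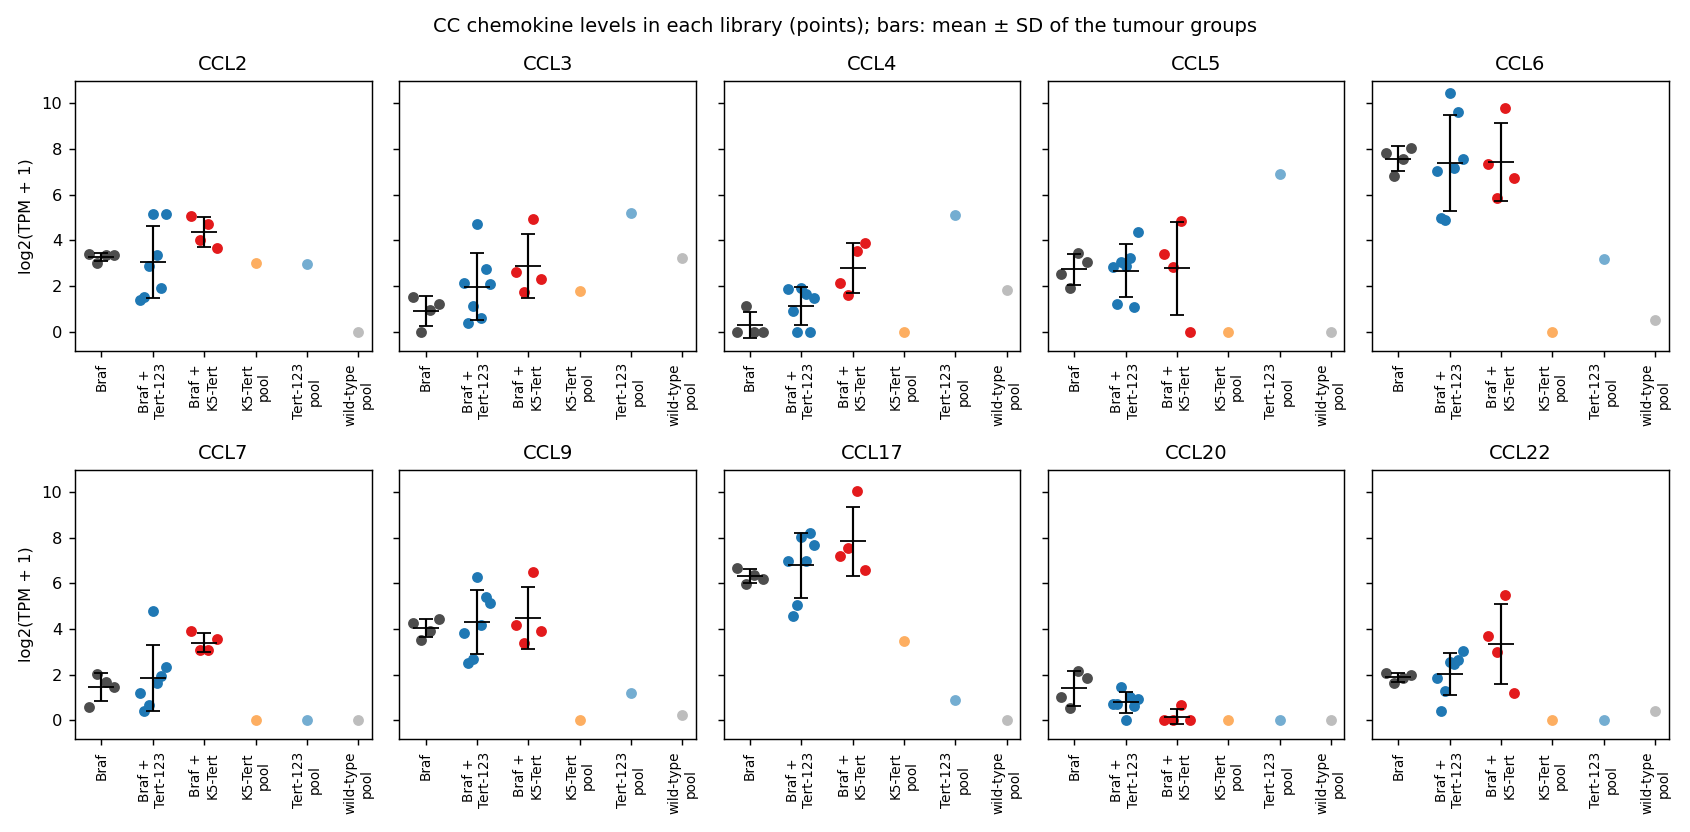
Each point is a library's level of a gene as log2(TPM + 1), with mean and SD for the 3 tumour groups and single points for the 3 pools. CCL6, CCL7, CCL9, CCL17 and CCL22 lie above every pool in all 15 tumours, as do 5.17% of 14711 genes at the 1 TPM filter. CCL2, CCL3, CCL4 and CCL7 lie higher in all 4 K5-Tert tumours than in any Braf tumour, as do 0.761% of these genes.

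CCL6 and CCL9, the myeloid CCR1 ligands, are adjacent protein-coding genes on chromosome 11, and their levels followed each other over the tumours. Pearson's r of their log2(TPM + 1) was 0.95 and Spearman's rho 0.92 over the 15 tumours, a description of libraries that share their composition. Their upstream sequences are shown because these neighbours moved together. They are the 250 bases before each start in RefSeq's GRCm38.p6 promoter table, at chr11:83593088-83593337 for Ccl6 and chr11:83578637-83578886 for Ccl9, both on the minus strand and read 5′ to 3′. Capitals mark matches to the motifs searched on both strands, which were the 10-base kB consensus of NF-kB, TGANTCA (AP-1) and TTCNNNGAA (STAT).

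Ccl6: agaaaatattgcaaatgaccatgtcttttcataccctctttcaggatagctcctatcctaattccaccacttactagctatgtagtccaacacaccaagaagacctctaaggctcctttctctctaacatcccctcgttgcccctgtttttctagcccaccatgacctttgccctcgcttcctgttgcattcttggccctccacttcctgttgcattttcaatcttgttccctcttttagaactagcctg
Ccl9: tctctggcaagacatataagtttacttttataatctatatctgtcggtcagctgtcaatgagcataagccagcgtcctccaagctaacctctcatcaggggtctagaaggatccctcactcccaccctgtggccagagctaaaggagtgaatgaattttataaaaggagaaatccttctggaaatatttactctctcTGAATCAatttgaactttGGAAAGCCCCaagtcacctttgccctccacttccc

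The Ccl9 window held a kB match 35 to 26 bases before the start (GGAAAGCCCC) and an AP-1 match 53 to 47 bases before it (TGAATCA), while no motif searched matched in the Ccl6 window. Of all 32851 promoter windows of this length, 7.25% held a kB match, 6.75% an AP-1 match and 7.02% a STAT match. RefSeq's promoter table held 6 of the 10 genes (Ccl3, Ccl6, Ccl9, Ccl17, Ccl20 and Ccl22), and none of the motifs searched matched in the windows of Ccl3 and Ccl22.

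CCL6 stood at 228, 111, 187 and 266 TPM in Braf tumours 1 to 4. In Tert-123 tumours it ranged from 28.8 TPM through a median of 141 TPM to 1385 TPM, and in K5-Tert tumours 1 to 4 it was 159, 57.1, 895 and 104 TPM. The 3 tumour groups overlapped, and the pools lay below every tumour, at 0 (K5-Tert), 8.00 (Tert-123C>T) and 0.416 TPM (wild type). CCL6 rose with the Braf mutation by 6.17 ± 0.89 (log2 fold change ± SE, n = 15 tumours and 3 pools, limma adjusted p = 1.69e-05). Among the tumours its mean was 198 ± 66.7 TPM (SD, n = 4) in the Braf group, 384 ± 512 TPM (SD, n = 7) in the Tert-123 group and 304 ± 397 TPM (SD, n = 4) in the K5-Tert group, differences smaller than the spread within the latter groups. The log2 differences were -0.18 ± 0.86 for Tert-123 minus Braf and -0.14 ± 0.97 for K5-Tert minus Braf (SE), neither of which passed the test.

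CCL9 ran at a lower level, with the same 3 tumours at the top. It was 18.2, 10.6, 13.9 and 20.7 TPM in Braf tumours, 4.73 to 75.7 TPM with a median of 17.2 TPM in Tert-123 tumours, and 16.8, 9.45, 88.3 and 14.2 TPM in K5-Tert tumours. K5-Tert tumour 3 and Tert-123 tumour 4 were the highest, and the groups overlapped. The pools lay below all 15 tumours, at 0 (K5-Tert), 1.33 (Tert-123C>T) and 0.177 TPM (wild type). CCL9 rose with the Braf mutation by 3.76 ± 0.61 on the log2 scale (SE, adjusted p = 7.37e-05). Between tumour groups its differences were 0.26 ± 0.61 (Tert-123 minus Braf), 0.45 ± 0.69 (K5-Tert minus Braf) and 0.19 ± 0.61 (K5-Tert minus Tert-123), all short of the threshold.

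CCL17 and CCL22, the CCR4 ligands, lie on chromosome 8 with only Cx3cl1, among protein-coding genes, between them, and also followed each other (Pearson's r 0.89, Spearman's rho 0.88, 15 tumours). The Ccl17 window, chr8:94810203-94810452 on the plus strand, is shown for the most abundant chemokine message of the K5-Tert group by mean. Its capitals mark a STAT match 99 to 91 bases before the start. That start lies inside the span RefSeq gives the gene, so longer transcripts may begin upstream of it. The Ccl22 window, chr8:94745434-94745683, overlaps a first exon in the GENCODE annotation and is not printed.

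Ccl17: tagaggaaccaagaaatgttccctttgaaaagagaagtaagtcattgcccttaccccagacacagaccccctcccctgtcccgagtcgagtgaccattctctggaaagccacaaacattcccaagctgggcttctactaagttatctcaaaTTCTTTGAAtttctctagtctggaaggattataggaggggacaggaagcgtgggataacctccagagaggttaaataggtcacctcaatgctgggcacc

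In Braf tumours CCL17 stood at 101, 61.9, 82.3 and 72.9 TPM. It ranged from 22.9 TPM through a median of 127 TPM to 291 TPM in Tert-123 tumours, and was 145, 184, 1042 and 95.0 TPM in K5-Tert tumours. Tumours 1, 2 and 3 of the last group lay above every Braf tumour, and tumour 3 lay above all others. The pools held 10.3 TPM (K5-Tert), 0.846 TPM (Tert-123C>T) and 0 (wild type). CCL17 rose with the Braf mutation by 5.53 ± 0.64 on the log2 scale (SE, adjusted p = 1.02e-06), and all 15 tumours exceeded every pool. Group means were 79.6 ± 16.8 TPM (SD, n = 4) in Braf, 151 ± 105 TPM (SD, n = 7) in Tert-123 and 367 ± 452 TPM (SD, n = 4) in K5-Tert tumours, but no difference between them passed the test. The K5-Tert minus Braf difference was 1.52 ± 0.72 (SE, adjusted p = 0.121), and was 0.79 without K5-Tert tumour 3.

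CCL22 had the same top tumour at a far lower level. It was 3.26, 2.12, 2.58 and 3.01 TPM in Braf tumours, 0.324 to 7.13 TPM with a median of 4.54 TPM in Tert-123 tumours, and 12.1, 6.98, 43.6 and 1.31 TPM in K5-Tert tumours. Of the latter, tumours 1 to 3 lay above the Braf tumours and tumour 4 below them, so the groups overlapped. In the pools CCL22 was listed at 0 (K5-Tert, Tert-123C>T) and 0.315 TPM (wild type). CCL22 rose with the Braf mutation by 2.29 ± 0.59 (log2, SE, adjusted p = 0.00673), a call lost without the K5-Tert pool (1.78, adjusted p = 0.0663) and with a pseudocount of 5 TPM (adjusted p = 0.0589). Its K5-Tert minus Braf difference of 1.45 ± 0.66 did not pass (adjusted p = 0.121).

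CCL2 and CCL7, the monocyte attractants that bind CCR2, are adjacent protein-coding genes on chromosome 11. CCL2 was 9.44, 7.04, 9.23 and 9.17 TPM in Braf tumours and 32.4, 14.9, 25.6 and 11.8 TPM in K5-Tert tumours. All 4 K5-Tert tumours lay above all 4 Braf tumours, with means of 21.2 ± 9.51 and 8.72 ± 1.12 TPM (SD, n = 4 each). Groups that did not overlap in this direction were found for 1.14% of the 7825 genes at the 10 TPM filter. CCL2 met that filter only through the 4 K5-Tert tumours and Tert-123 tumours 4 and 7, and through no Braf tumour. The K5-Tert minus Braf difference of 1.09 ± 0.67 (log2, SE) failed the test (adjusted p = 0.227), in a fit whose spread is shared with the Tert-123 group. In that group CCL2 ran from 1.63 TPM through a median of 6.45 TPM to 34.3 TPM, with tumours 4 and 7 apart from the others at 34.3 and 34.1 TPM. Against it the K5-Tert difference was 1.31 ± 0.60 (adjusted p = 0.0957), which passed on leaving out Tert-123 tumour 4 or 7 (lowest adjusted p = 0.0267). CCL2 stood at 6.96 TPM (K5-Tert), 6.85 TPM (Tert-123C>T) and 0 (wild type) in the pools, and its Braf difference of 1.53 ± 0.65 did not pass (adjusted p = 0.0923).

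CCL7 was higher in every K5-Tert tumour than in every Braf tumour. Its levels were 14.2, 7.57, 7.45 and 10.7 TPM in K5-Tert tumours and 0.517, 3.12, 2.23 and 1.77 TPM in Braf tumours, means of 9.96 ± 3.17 and 1.91 ± 1.08 TPM (SD, n = 4 each). In Tert-123 tumours it ran from 0.317 TPM through a median of 2.11 TPM to 26.5 TPM, the highest being tumour 4 and the next 4.04 TPM, and all 3 pools listed it at 0. CCL7 rose in K5-Tert over Braf tumours by 1.96 ± 0.65 (log2, SE, adjusted p = 0.0493). This call was close to the threshold and was lost on leaving out any 1 of 12 of the 15 tumours, including each Braf and each K5-Tert tumour (adjusted p up to 0.122), and with Xist as a covariate (adjusted p = 0.202). The K5-Tert minus Tert-123 difference of 1.56 ± 0.58 did not pass (adjusted p = 0.0614), and became 2.05 without Tert-123 tumour 4 (adjusted p = 0.00387). With the Braf mutation CCL7 rose by 2.23 ± 0.59 (adjusted p = 0.0083), a call lost without the K5-Tert pool (adjusted p = 0.0838).

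CCL3, CCL4 and CCL5, attractants of monocytes and T cells, were scarce in Braf tumours. CCL4 was listed at 0 in Braf tumours 1, 3 and 4 and stood at 1.22 TPM in tumour 2. It was 3.39, 2.06, 10.6 and 13.9 TPM in K5-Tert tumours and 0 to 2.78 TPM with a median of 1.82 TPM in Tert-123 tumours. All 4 K5-Tert tumours lay above the Braf tumours, and 3 of 4 above every Tert-123 tumour. CCL4 rose in K5-Tert tumours by 2.51 ± 0.53 over Braf (log2, SE, adjusted p = 0.0105) and by 1.67 ± 0.47 over Tert-123 tumours (adjusted p = 0.0227). The first call held on leaving out each tumour in turn (adjusted p 0.00269 to 0.0479) and with Xist as a covariate (adjusted p = 0.0495), and was lost on leaving out K5-Tert tumours 2 and 4 together (adjusted p = 0.111). The second was lost without K5-Tert tumour 3 or without tumour 4 (adjusted p up to 0.111).

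CCL3 was 1.84, 0, 0.906 and 1.35 TPM in Braf tumours, 0.322 to 24.9 TPM with a median of 3.19 TPM in Tert-123 tumours, and 5.06, 2.31, 29.4 and 3.91 TPM in K5-Tert tumours. Its K5-Tert and Braf levels did not overlap, yet the difference of 1.97 ± 0.77 (log2, SE) did not pass (adjusted p = 0.0817), and passed without Tert-123 tumour 4 (adjusted p = 0.0338). CCL5 overlapped in every comparison of tumours. It was 4.76, 2.75, 10.1 and 7.26 TPM in Braf tumours, 1.14 to 19.8 TPM with a median of 6.25 TPM in Tert-123 tumours, and 9.72, 6.19, 27.5 and 0 TPM in K5-Tert tumours. The K5-Tert minus Braf difference of CCL5 was 0.04 ± 0.79.

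The Tert-123C>T pool stood apart for these 3 genes. It held 119 TPM of CCL5, 35.3 TPM of CCL3 and 33.1 TPM of CCL4, above every tumour for each. In the K5-Tert pool CCL5 was listed at 0, CCL3 at 2.39 TPM and CCL4 at 0, and in the wild-type pool the values were 0, 8.47 and 2.52 TPM. The summed level of 13 T and NK cell markers was 221 TPM in the Tert-123C>T pool, 1.22 and 9.93 TPM in the other pools and 3.14 to 22.7 TPM in the tumours. CD3G, a subunit of the T cell receptor complex, was at 96.1 TPM in that pool and 0.174 to 7.92 TPM in the tumours, where CD8B1, GZMA and NKG7 had a median of 0. That pool was also the highest pool for macrophage markers, at 331 TPM against 66.1 and 87.3 TPM in the others. Fibroblast markers were at 342 TPM in it against 33.4 and 37.5 TPM, and endothelial markers at 849 TPM against 87.8 and 309 TPM. The part of any of these cell types in the levels of CCL3, CCL4 and CCL5 was not tested. None of the 3 passed the test of the Braf mutation (CCL5 0.28 ± 0.997, CCL3 -1.52 ± 0.77, CCL4 -0.99 ± 0.76, log2 ± SE). Without the Tert-123C>T pool the CCL5 difference was 2.76 (adjusted p = 0.0325). Without the K5-Tert pool CCL3 and CCL4 were lower with the mutation, at log2 differences of -2.79 and -2.80 (adjusted p = 0.0166 and 0.00265).

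CCL20, the CCR6 ligand, went the other way. It was 1.03, 0.443, 3.54 and 2.64 TPM in Braf tumours, 0 to 1.77 TPM with a median of 0.656 TPM in Tert-123 tumours, and 0, 0, 0.592 and 0 TPM in K5-Tert tumours. All 3 pools listed it at 0. It reached 10 TPM in no library and 1 TPM in 5, which were Braf tumours 1, 3 and 4 and Tert-123 tumours 3 and 5. CCL20 thus met the 1 TPM filter only through groups in which it was higher, and through no K5-Tert tumour. Of the K5-Tert tumours, 3 lay below every Braf tumour, and tumour 3 overlapped them. Against Braf tumours, CCL20 fell by 1.23 on the log2 scale in K5-Tert tumours (SE 0.37, adjusted p = 0.0351). Measured against the median gene, which was itself lower in K5-Tert tumours, the difference was -0.75, and the call was lost with TMM-type scaling (adjusted p = 0.054), quantile normalization (adjusted p = 0.205) or Xist as a covariate (adjusted p = 0.163). It was also lost without Braf tumour 3 or 4 or K5-Tert tumour 2 or 4 (adjusted p up to 0.13). The window upstream of Ccl20, chr1:83116516-83116765 on the plus strand in GRCm38.p6, is shown as the epithelial member. Its capitals mark a kB match 80 to 71 bases before the start.

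Ccl20: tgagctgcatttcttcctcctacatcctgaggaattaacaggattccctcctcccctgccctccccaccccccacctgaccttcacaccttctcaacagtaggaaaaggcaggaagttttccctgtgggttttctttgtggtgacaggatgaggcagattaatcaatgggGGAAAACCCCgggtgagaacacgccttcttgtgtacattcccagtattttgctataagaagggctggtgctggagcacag

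Counted over the 10 genes, 5 rose with the Braf mutation and none fell. CCL6, CCL9 and CCL17 were called among the 5 genes that reached 10 TPM in at least 4 libraries (with CCL2 and CCL5), where 15.4% of 7825 genes were called higher and 25.4% in either direction. CCL5 met this filter with the help of the Tert-123C>T pool. With a filter of 1 TPM, which all 10 met, CCL7 and CCL22 were called as well, against 14.2% of 14711 genes called higher. The median log2 difference of the 10 was 1.88, beside 0.13 for all genes tested. In all 15 tumours CCL6, CCL7, CCL9, CCL17 and CCL22 lay above every pool, which 5.17% of genes at the 1 TPM filter showed. These calls rest on 3 single pools, and the mutation cannot be told apart from pooling. A gene high in the pools alone could not meet a filter of 4 libraries.

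Between Tert-123 and Braf tumours no called difference was found. None of the 10 passed the test, at either filter, and 0% of genes were called. At an unadjusted p under 0.05, limma gave 51 of 7825 genes and 0 of 5 chemokines at the 10 TPM filter. At the 1 TPM filter it gave 258 of 14711 genes and 0 of the 10. Their differences ran from -0.61 (CCL20) to 1.06 (CCL3) on the log2 scale, with SEs of 0.33 and 0.68, and the median of the 10 was 0.20 beside -0.01 for all genes. Differences within the wide spread of the 7 Tert-123 tumours were not detectable here.

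K5-Tert tumours differed from Braf tumours in CCL4 and CCL7, which rose, and in CCL20, which fell, all at the 1 TPM filter. Among 14711 genes 15.4% were called in either direction and 0.394% higher, so most called genes were lower. The K5-Tert libraries also differed in general measures. In all 4 of them fewer genes reached 1 TPM (10958 to 12699) than in any other tumour (13103 to 15045). Malat1, an abundant nuclear RNA, was at 1191, 1908 and 1050 TPM in K5-Tert tumours 2, 3 and 4, at 5902 TPM in tumour 1 and at 5072 to 8420 TPM in the other 11 tumours. Rpph1 took 68.8% and 67.6% of K5-Tert tumours 2 and 4. Its range of 55.4% to 68.8% in K5-Tert tumours overlapped that of 43.7% to 67.4% in the other 11 tumours. At the 1 TPM filter 0 of the 10 chemokines were called without K5-Tert tumours 2 and 4, where limma called 8 genes higher and 13 lower. The part of these library measures in the chemokine differences was not otherwise tested. Of the 5 genes at the 10 TPM filter none passed, where 21.9% of genes were called, 0.626% higher and 21.2% lower. CCL17 was the 1 of these 5 with an unadjusted limma p under 0.05, beside 3119 of all 7825 genes. CCL2, CCL3, CCL4 and CCL7 had K5-Tert levels wholly above the Braf levels, which 0.761% of genes at the 1 TPM filter showed. The median log2 difference of the 10 was 1.27, beside -0.48 for all genes. Against Tert-123 tumours CCL4 alone passed, at the 1 TPM filter, where 0.476% of genes were called higher and 20.0% lower. The median of the 10 was 0.98, beside -0.47. At the 10 TPM filter 0 of 5 passed, while 29.3% of genes did. The comparisons of K5-Tert tumours with the other tumour groups share the K5-Tert libraries, and the comparisons with Braf tumours share the Braf libraries.

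**Figure D3:**
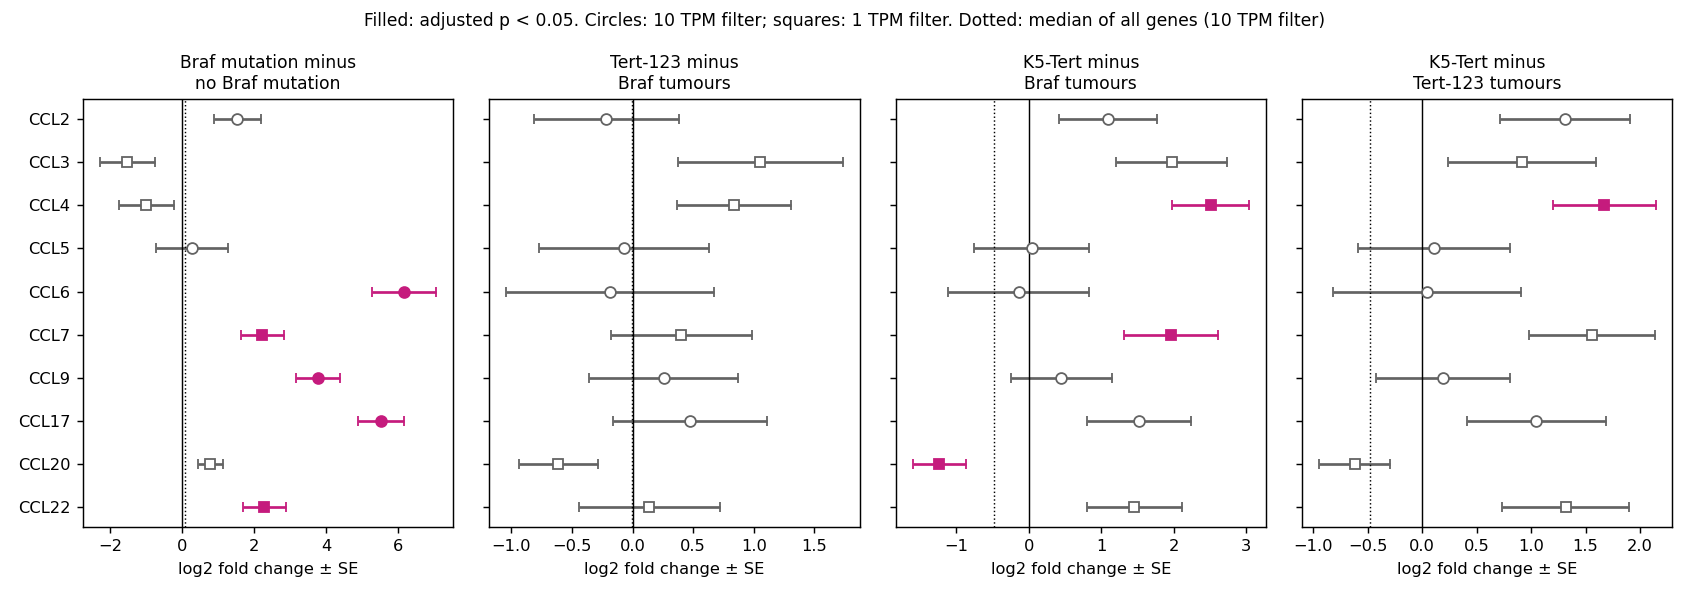
Log2 fold change with SE for the 10 CC chemokines (rows) in 4 comparisons (panels); filled symbols passed an adjusted p of 0.05, circles are from the 10 TPM filter, squares from the 1 TPM filter, and the dotted line is the median of all genes. CCL6 (6.17), CCL17 (5.53) and CCL9 (3.76) lie farthest right for the Braf mutation, no symbol is filled for Tert-123, and CCL4 (2.51), CCL7 (1.96) and CCL20 (-1.23) are filled for K5-Tert against Braf.

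Levels of several of these chemokines followed marker sums over the tumours, those of leukocytes and of fibroblasts alike. Pearson's r with the log2 summed level of the 14 macrophage markers was 0.98 for CCL9, 0.94 for CCL6, 0.87 for CCL17, 0.80 for CCL3 and 0.72 for CCL22. It was 0.57 for CCL7, 0.55 for CCL2, 0.46 for CCL5, 0.22 for CCL4 and -0.15 for CCL20. Much of this sum was LYZ2 alone, at 4275 of 5292 TPM in Tert-123 tumour 4 and 149 of 374 TPM in Tert-123 tumour 3. With the 10 dendritic cell markers r was 0.94 for CCL17, but H2-AB1 made up 89.6% to 96.5% of that sum. With the other 9 markers r was 0.76. The 7 fibroblast markers gave r of 0.80 for CCL3, 0.79 for CCL6, 0.75 for CCL17 and 0.74 for CCL9. The 13 thyrocyte markers ran the opposite way for most, with r of -0.78 for CCL17 and CCL7, -0.71 for CCL3, -0.64 for CCL9 and -0.63 for CCL4, and with r of 0.64 for CCL20. These values describe 15 libraries that share composition, and Tert-123 tumour 4 and K5-Tert tumour 3 were the highest for macrophage markers, at 5292 and 3939 TPM. Of the 10 chemokines, K5-Tert tumour 3 had the highest tumour level for 5 and Tert-123 tumour 4 for 3.

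Among the 7825 genes, those most like CCL6 over the tumours were MRC1, the macrophage mannose receptor (r 0.98), HVCN1 (r 0.97) and ATP6V0D2 (r 0.97). For CCL9 they were LAPTM5 (r 0.97), LYZ2, the myeloid lysozyme (r 0.97), and COTL1 (r 0.96); MRC1 and LYZ2 are among the macrophage markers. For CCL17 they were the MHC class II genes H2-AB1 (r 0.95) and H2-AA (r 0.94) and MS4A6D (r 0.94). For CCL2 they were HIST1H3A (r 0.90), RPS27L (r 0.83) and S100A10 (r 0.81), and for CCL5 ELL2 (r 0.84), UBE2F (r 0.81) and ADPRH (r 0.80).

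The same markers differed between tumours and pools. Of the 9 macrophage markers tested at 10 TPM, 6 rose with the Braf mutation, among them LYZ2 by 4.65 and MRC1 by 2.97 (log2), beside CCL6, CCL9 and CCL17, where 15.4% of all genes tested were called higher. Of 4 dendritic cell markers tested, CD209A, ITGAX and H2-AB1 rose with the mutation and ZBTB46, a transcription factor of classical dendritic cells, fell by 1.14. Of 6 fibroblast markers tested, 3 rose, COL1A1 by 3.55, COL1A2 by 2.94 and COL3A1 by 2.59 (log2), and none fell. The 1 neutrophil marker tested, S100A8, rose by 3.78. All 4 endothelial markers tested fell, beside 786 of the 7825 genes called lower. Of 7 thyrocyte markers tested, 4 fell and 1 rose. The part of any of these cell types in the rise of these chemokines was not tested. Between K5-Tert and Braf tumours, 1 of the 9 macrophage markers rose (CD14, by 2.18) and none fell, beside 0.626% of genes higher and 21.2% lower, and macrophage sums overlapped (521 to 3939 TPM against 638 to 1085 TPM). ZBTB46 fell by 0.97. Of 7 thyrocyte markers tested, 4 transcription factor genes fell in K5-Tert tumours, HHEX by 1.37, NKX2-1 by 1.31, PAX8 by 1.27 and GLIS3 by 1.2 (log2), and none rose. Thyrocyte sums were 395 to 512 TPM in K5-Tert and 641 to 808 TPM in Braf tumours, without overlap. The median log2 difference of all genes tested was itself -0.47, beside -1.27 for the 7 thyrocyte markers. The part of these cell types in the K5-Tert differences of CCL4, CCL7 and CCL20 was not tested. Without both Tert-123 tumour 4 and K5-Tert tumour 3, the K5-Tert minus Braf count at the 1 TPM filter stayed at 2 higher and 1 lower.

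**Figure D4:**
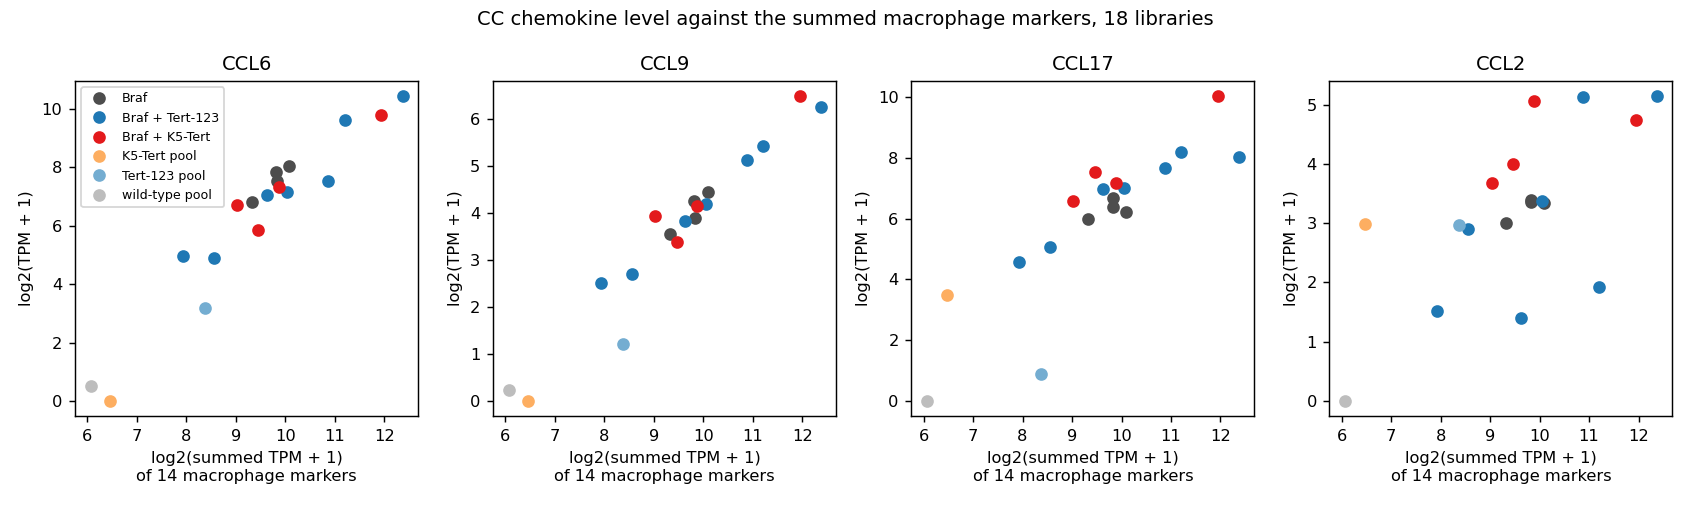
Level of CCL6, CCL9, CCL17 and CCL2 as log2(TPM + 1) against the log2 summed level of 14 macrophage markers in the 18 libraries, coloured by genotype. CCL9 and CCL6 lie near a line over the tumours (r 0.98 and 0.94), CCL2 is more scattered (r 0.55), and the pools lie lowest on the horizontal axis together with Tert-123 tumours 2 and 3.

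CCL17 was also set against LYZ2, a macrophage marker, the summed macrophage markers, and H2-AB1, the gene most like it. This choice was made after its values were seen, so no test is given. As a percentage of LYZ2, CCL17 was 15.7%, 13.9%, 12.4% and 8.61% in Braf tumours, 6.11% to 26.1% with a median of 17.6% in Tert-123 tumours, and 27.7%, 38.2%, 40.0% and 28.8% in K5-Tert tumours. By this ratio the K5-Tert group lay above the other 11 tumours, as it did for 0.153% of 7824 genes set against LYZ2 in the same way. As a percentage of the summed 14 macrophage markers, CCL17 was 6.72% to 11.2% in Braf and 4.94% to 15.7% in Tert-123 tumours. In K5-Tert tumours it was 15.4% to 26.5%, which overlapped the Tert-123 tumours. As a percentage of H2-AB1 it was 15.7% to 18.6% in Braf and 24.2% to 36.3% in K5-Tert tumours, which did not overlap (0.204% of genes by that ratio), and 11.2% to 40.2% in Tert-123 tumours, which overlapped both. K5-Tert tumour 3 therefore stood out less by these ratios than by its level. CCL9 was 2.10% to 2.81% of LYZ2 in Braf tumours, 1.77% to 3.69% in Tert-123 tumours and 1.96% to 4.31% in K5-Tert tumours, with medians of 2.42%, 2.46% and 3.30%, and the 3 groups overlapped.

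**Figure D5:**
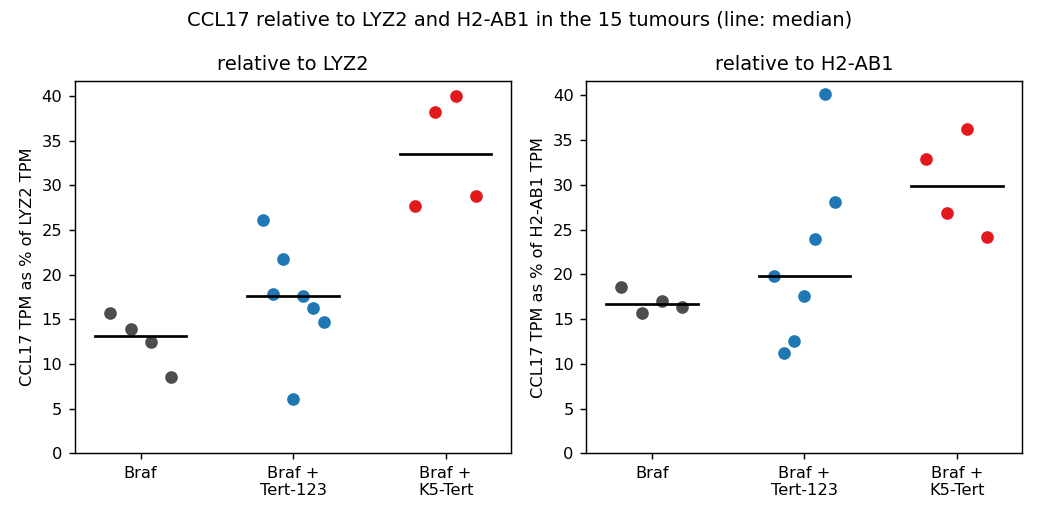
CCL17 as a percentage of LYZ2 (left) and of H2-AB1 (right) in the 15 tumours, a point per tumour with the group median as a line. K5-Tert tumours lie at 27.7% to 40.0% of LYZ2, above the other 11 tumours, while for H2-AB1 they overlap the Tert-123 tumours.

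Receptors of CC chemokines were measured in the same libraries. Of 15 CC and atypical chemokine receptors examined, 7 met the 1 TPM filter, and 3 rose with the Braf mutation: CCR2 by 2.18, CCR1 by 2.15 and CCR6 by 0.88 (log2), beside 14.2% of all genes at that filter. CCR2, bound by CCL2 and CCL7, stood at 4.64 to 6.35 TPM in Braf tumours, 3.30 to 24.3 TPM in Tert-123 and 1.15 to 20.3 TPM in K5-Tert tumours. In K5-Tert against Braf tumours 2 of the 7 receptors rose, beside 0.394% of all genes. CCR7, which guides mature dendritic cells and T cells to lymph nodes, was 4.27, 7.71, 35.8 and 1.71 TPM in K5-Tert tumours and 0.137 to 0.953 TPM in Braf tumours, a rise of 2.47 ± 0.59 (log2, SE, adjusted p = 0.016). CCRL2, an atypical receptor, rose by 1.55 ± 0.49 (adjusted p = 0.0411). None of the 7 passed for Tert-123 against Braf tumours.

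Of 14 other CC chemokines, 6 met the 1 TPM filter. CCL12, another CCR2 ligand, rose with the Braf mutation by 2.32 and CCL25 by 1.33 (log2), beside 14.2% of all genes called higher. CCL25 fell by 1.51 in K5-Tert against Braf tumours, where the median of all genes was -0.48. No other of the 6 was called there, beside 15.4% of all genes called in either direction and 0.394% higher. Of 16 genes known to be induced by NF-kB, 14 met the 10 TPM filter. In K5-Tert against Braf tumours 3 of them rose, IL1B by 3.89, CXCL2 by 2.54 and NFKBIA by 0.92, and none fell, beside 0.626% of all genes higher and 21.2% lower. With the Braf mutation 4 of the 14 fell and none rose, beside 786 of the 7825 genes lower and 15.4% higher. IRF1 fell by 2.06, NFKBIZ fell by 2.36, NFKBIA fell by 1.77 and TNFAIP3 fell by 2.13, while CCL6, CCL9 and CCL17 rose.

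Some of these levels may hold reads of other genes. RefSeq or GENCODE models of Ccl3 and Ccl4 overlap each other, Ccl2 overlaps Gm17268 on the other strand, Ccl6 overlaps E230016K23Rik on the other strand, and Ccl5 overlaps Gm32650. The sources used here do not say whether counting used strand, and reads of these partners cannot be told apart.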

How the data were processed

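The 18 libraries were low-input messenger RNA libraries of sorted YFP+ thyroid cells, sequenced in paired reads, per the series' design text. The deposited table is called normalized counts; its values were treated as TPM because each column sums to 1000000 and low values share no step, and the authors' aligner, quantification tool, genome build and annotation were not given in the sources used here. Of 23652 entries, 26 carried a date in place of a symbol and were dropped; they held no more than 0.0455% of any library's TPM. Depth is unknown, so no counting interval is given. No 2 columns were identical.

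Groups came from the genotype labels, with libraries numbered in series order. limma 3.58.1 in R 4.3.3 was fitted to log2(TPM + 1) with a mean-variance trend over all genes reaching 10 TPM in at least 4 of the 18 libraries, and again at 1 TPM for the 5 chemokines below that filter. Fold changes on this scale understate those of low genes. The 3 tumour groups shared 1 fit of 15 tumours. The Braf mutation was tested over 18 libraries with the Tert allele as a covariate. Tests were two-sided, with Benjamini-Hochberg adjustment over all genes and a threshold of 0.05. The fit was tested on simulated data. Alternatives were the pseudocount, filter, scaling, Xist as a covariate, the libraries fitted and each library left out. The 10 chemokines and all gene lists were chosen with earlier results of these data known. A listed receptor is not reported here and was left out of its list's counts. Named genes were the 10, called members of the lists (at most 6 by smallest p), listed chemokines and receptors reaching 10 TPM, and the 3 genes most correlated with each chemokine past the filter; markers were named beside the results they move with.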

Additional observations from a re-analysis of the deposited data

Results flagged for a closer look

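Within a tumour group, a library was marked when its gap to the nearest other library exceeded Dixon's 95% critical share of the group's range. Of 30 combinations of chemokine and tumour group, 10 held such a library. The critical share assumes normally distributed values, and the gaps were taken on TPM without a log. Its rate of 1 in 20 is therefore not a chance rate for these groups. For CCL4 in Braf and CCL20 in K5-Tert tumours all other values were 0, so the gap filled the whole range. K5-Tert tumour 3 was marked as the highest of its group for 5 chemokines: CCL3 at 29.4 TPM (next 5.06), CCL6 at 895 TPM (next 159), CCL9 at 88.3 TPM (next 16.8), CCL17 at 1042 TPM (next 184) and CCL20 at 0.592 TPM (all others 0). Tert-123 tumour 4 was marked as the highest for CCL3 at 24.9 TPM (next 5.78) and CCL7 at 26.5 TPM (next 4.04). Tert-123 tumour 7 was marked as the highest for CCL5 at 19.8 TPM (next 8.48). In the Braf group, tumour 2 was marked as the lowest for CCL2 at 7.04 TPM (next 9.17) and as the highest for CCL4 at 1.22 TPM (all others 0). Without a mark, K5-Tert tumour 3 was also the highest of its group for CCL5 and CCL22, and Tert-123 tumour 4 for CCL2, CCL4, CCL6 and CCL9. The marks of 1 library are not independent, since its messages share its composition.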

How the results depend on the processing

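No paired analysis was possible because replicate numbers follow series order and pair no libraries. Tert-123 minus Braf gave 0 called chemokines under every alternative. K5-Tert minus Braf, 0 at the 10 TPM filter, gave 3 with a filter of 1 TPM, 2 with no filter and 1 rescaled without Rpph1, and 0 in all fits leaving out 1 tumour. K5-Tert minus Tert-123, 0, gave 1 with the 1 TPM filter, no filter, TMM-type factors, rescaling without Rpph1, or without Tert-123 tumour 4 and K5-Tert tumour 3 (an alternative chosen after seeing the data), and 0 to 1 leaving out 1 tumour. The Braf mutation, 3, gave 5 with the 1 TPM filter or no filter, 6 rescaled without Rpph1, and 3 to 5 leaving out 1 library (5 without the Tert-123C>T pool). More genes are tested at the lower filters. CCL6, CCL9 and CCL17 kept their Braf calls under every alternative run. Beyond the losses given above, CCL7 in K5-Tert minus Braf lost its call with pseudocounts of 0.5 (adjusted p = 0.0507) and 5 (0.0671) and no filter (0.0887). Without K5-Tert tumours 2 and 4, the calls of CCL7 (0.324) and CCL20 (0.342) against Braf and CCL4 (0.242) against Tert-123 were lost; fitting only the groups compared lost CCL20 (0.0582) and CCL4 (0.0501). CCL7 lost its Braf call with a pseudocount of 5 (0.0637). CCL3 fell with the Braf mutation without Tert-123 tumour 4 and K5-Tert tumour 3 (-1.94, adjusted p = 0.0148).

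Small uncalled log2 differences changed sign; the cause was not tested. CCL5, Tert-123 minus Braf (-0.07), was 0.021 with a pseudocount of 5, 0.16 with quantile normalization and 0.18 with Xist. K5-Tert minus Braf (0.04) was -0.14 with a pseudocount of 0.5 and -0.12 without Rpph1. K5-Tert minus Tert-123 (0.11) was -0.025 with 0.5. Its Braf difference (0.28) was -0.43 with 5 and -1.04 with quantile normalization. CCL6, K5-Tert minus Braf (-0.14), was 0.39 with TMM-type factors, 0.025 without Rpph1 and 0.999 without K5-Tert tumours 2 and 4. Without Tert-123 tumour 4 and K5-Tert tumour 3, CCL5 was -0.65 (K5-Tert minus Braf) and -0.54 (minus Tert-123), CCL6 -0.24 (K5-Tert minus Tert-123), CCL7 -0.086 and CCL9 -0.072 (Tert-123 minus Braf), and CCL9 -0.21 (K5-Tert minus Braf) and -0.14 (minus Tert-123).

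Leaving out 1 library gave, for Tert-123 minus Braf, CCL2 -0.56 to 0.059, CCL5 -0.36 to 0.19, CCL6 -0.69 to 0.23, CCL7 -0.086 to 0.65, CCL9 -0.072 to 0.55 and CCL22 -0.028 to 0.41. For K5-Tert minus Braf it gave CCL5 -0.65 to 0.96, CCL6 -0.93 to 0.38 and CCL9 -0.21 to 0.82. For K5-Tert minus Tert-123 it gave CCL5 -0.58 to 1.04, CCL6 -0.75 to 0.57 and CCL9 -0.47 to 0.56. For the Braf mutation it gave CCL4 -2.80 to 0.63 and CCL5 -0.91 to 2.76.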

Other observations

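CC chemokines outside the 10 were high in few libraries. CCL26, an eotaxin, was at 138, 26.0 and 19.2 TPM in Tert-123 tumours 1, 2 and 6 and listed at 0 in the other 15 libraries. CCL1 was at 27.8 TPM in Tert-123 tumour 4 and at 3.07 TPM or less elsewhere. CCL8 was at 38.4 TPM in the same tumour, 15.9 TPM in K5-Tert tumour 3 and 8.39 TPM or less elsewhere. CCL12 was highest in Tert-123 tumour 7 (19.4 TPM) and K5-Tert tumours 4 and 1 (11.1 and 11 TPM). CCL11, another eotaxin, was at 46.6 TPM in the Tert-123C>T pool and at 9.39 TPM or less elsewhere. ACKR4, a scavenging receptor, was at 20.6 TPM in Braf tumour 1 and at 9.49 TPM or less elsewhere. ACKR3 was at 19.8 TPM in the Tert-123C>T pool and 10.9 TPM in the K5-Tert pool, with 2.68 to 9.29 TPM in the tumours.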
